A study of Mus musculus with 6 samples.

Results

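Vacuolar ATPase (V-ATPase) V0 and accessory subunit genes were examined in mouse muscle that had received a TFEB-expressing or a GFP-expressing virus. The 8 genes Atp6v0a1, Atp6v0a2, Tcirg1, Atp6v0b, Atp6v0d1, Atp6v0e, Atp6ap1 and Atp6ap2 were taken with every probe set whose platform annotation gave that symbol alone. This gave 17 of 22626 probe sets, for 8 of 12393 genes. A probe set is a group of short oligonucleotides on the Affymetrix array that reads 1 transcript or a group of related transcripts. Total muscle RNA of wild-type C57BL/6 mice was measured on 6 arrays, which the labels call biological replicates. On 3 arrays the muscle carried an adeno-associated virus (AAV) expressing murine Tcfeb, the mouse gene for transcription factor EB (TFEB overexpression). On the other 3 it carried the same type of vector expressing green fluorescent protein (GFP control). No array of this series was of muscle without virus.

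The labels give an age of 1 month, but the study describes the mice as adult. The labels name neither the muscle nor the time between injection and RNA extraction. The paper itself does state the days from intramuscular injection to sacrifice for its overexpression experiment. Both vectors carried the CMV promoter, which is active in many cell types and does not restrict expression to muscle fibres. The samples are bulk tissue, so fewer cells of a type and less RNA per cell cannot be told apart. The deposited values are RMA values on a log2 scale, and each fold change below is TFEB overexpression minus GFP control with its standard error (SE, 3 arrays per group). To pass the threshold, a probe set needed an adjusted p (limma) below 0.05 together with a difference of 1.5-fold or more.

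The V-ATPase is a rotary proton pump that acidifies lysosomes, endosomes and the Golgi. Its cytosolic V1 sector hydrolyses ATP, and its membrane V0 sector carries protons across the bilayer through a ring of proteolipid subunits and an a subunit. Most a isoforms differ in the compartment or cell type they serve, and the pump also gives a docking surface for nutrient signalling at the lysosome. TFEB is a basic helix-loop-helix factor known to bind E-box sites in promoters of lysosomal genes.

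Before the members, 3 features of the arrays bear on their values. The only Tfeb probe set, 1422566_at, was lower in the TFEB group, at 8.49, 8.47 and 8.58 on the GFP arrays and 7.92, 7.68 and 7.61 on the TFEB arrays. This probe set passed the threshold in the lower direction (-0.77 ± 0.097, adjusted p = 0.0024). No source used here says whether it reads the part of the transcript that the vector carries. It therefore checks nothing about the labels, and TFEB arrays below means the arrays so labelled (TFEB 1 to 3, with GFP 1 to 3 for the controls). GFP control 2 stood apart from the other GFP arrays: it differed by over 2-fold from GFP control 1 at 844 probe sets and from GFP control 3 at 725, whereas GFP control 1 and 3 differed from each other at 87. The 3′ minus 5′ difference of the Actb control probe sets, a measure of RNA integrity and labelling, was 0.037 to 0.077 on the GFP arrays and 0.22 to 0.34 on the TFEB arrays, and for Gapdh it was -0.071 to -0.061 and -0.038 to 0.053. The part of this shift in the results below was not tested. Fibre genes defined the tissue as skeletal muscle: the 10 listed, among them Ckm, Acta1 and Mylpf, had means of 13.4 to 14.4. None of the 10 passed the threshold, but they lie at the top of the scale (highest value 14.4), where RMA compresses changes. Their groups did not overlap for 3 higher and 7 lower genes, among them Myh1 (0.45, adjusted p = 0.011) and Actn3 (-0.27, adjusted p = 0.020). Such a lack of overlap was seen in 49.9% of all probe sets. Other fibre genes differed less, such as Acta1 (0.018) and Pvalb (-0.040), and the list's median log2 fold change was -0.060.

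To show what E-box sequence lies at the start of these genes, the RefSeq promoter windows (assembly GRCm38.p6) were searched for CACGTG, the core of the motif TFEB is known to bind. Each window held 250 bases before and 50 bases after an annotated transcript start. Windows were found for 7 of the 8 genes, with 3 for Tcirg1; Atp6v0a2 was not matched. CACGTG is its own reverse complement, so both strands were read at once. It occurred in 3 of the 7 genes, Atp6v0e, Atp6v0b and Atp6v0d1, and in 8.09% of the 27025 genes with a window. The longer TCACGTG, searched on both strands and overlapping the first motif, was found in the same 3 genes and in 4.29% of all genes.

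The following sequences give the 60 bases before the transcript start and its first 12 bases, 5′ to 3′ on the gene's own strand, with CACGTG in capitals. The 3 genes that hold the motif are set beside Atp6ap2, which rose but whose window holds no match. The stretches lie at chr17:26676336-26676407 (Atp6v0e, plus strand), chr4:117887318-117887389 (Atp6v0b, minus strand), chr8:105566053-105566124 (Atp6v0d1, minus strand) and chrX:12587699-12587770 (Atp6ap2, plus strand).
Atp6v0e: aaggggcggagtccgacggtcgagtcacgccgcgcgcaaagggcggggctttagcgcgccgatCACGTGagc
Atp6v0b: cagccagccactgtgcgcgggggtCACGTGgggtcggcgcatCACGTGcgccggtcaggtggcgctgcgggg
Atp6v0d1: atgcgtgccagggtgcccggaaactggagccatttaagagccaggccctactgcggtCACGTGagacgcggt
Atp6ap2: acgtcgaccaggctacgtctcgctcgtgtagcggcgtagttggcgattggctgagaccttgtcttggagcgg

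With the first transcribed base counted as 1 and the base before it as -1, the motif began at 4 in Atp6v0e, at -36 and -18 in Atp6v0b, and at -3 in Atp6v0d1. A match is a description of these letters and not evidence of binding.

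Across the 17 probe sets, 4 were higher in the TFEB group, 0 were lower and 13 did not pass the threshold. Over all probe sets tested, 13.6% passed, made up of 7.51% higher and 6.11% lower. The 4 belonged to Atp6v0e, Atp6ap2 (2 probe sets) and Atp6v0a1, so that 3 of 8 genes passed, all higher, when each was read by its probe set of highest mean. At that level 13.5% of all genes passed, and 8.62% of all genes passed as higher. Without the fold limit 8 of the 17 probe sets had an adjusted p under 0.05 (32.6% of all), 6 higher and 2 lower, and in 10 of the 17 the groups did not overlap (49.9% of all). The median log2 fold change was 0.19 over the 17 probe sets, 0.48 over the 8 genes and -0.064 over all probe sets.

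**Figure D1:**
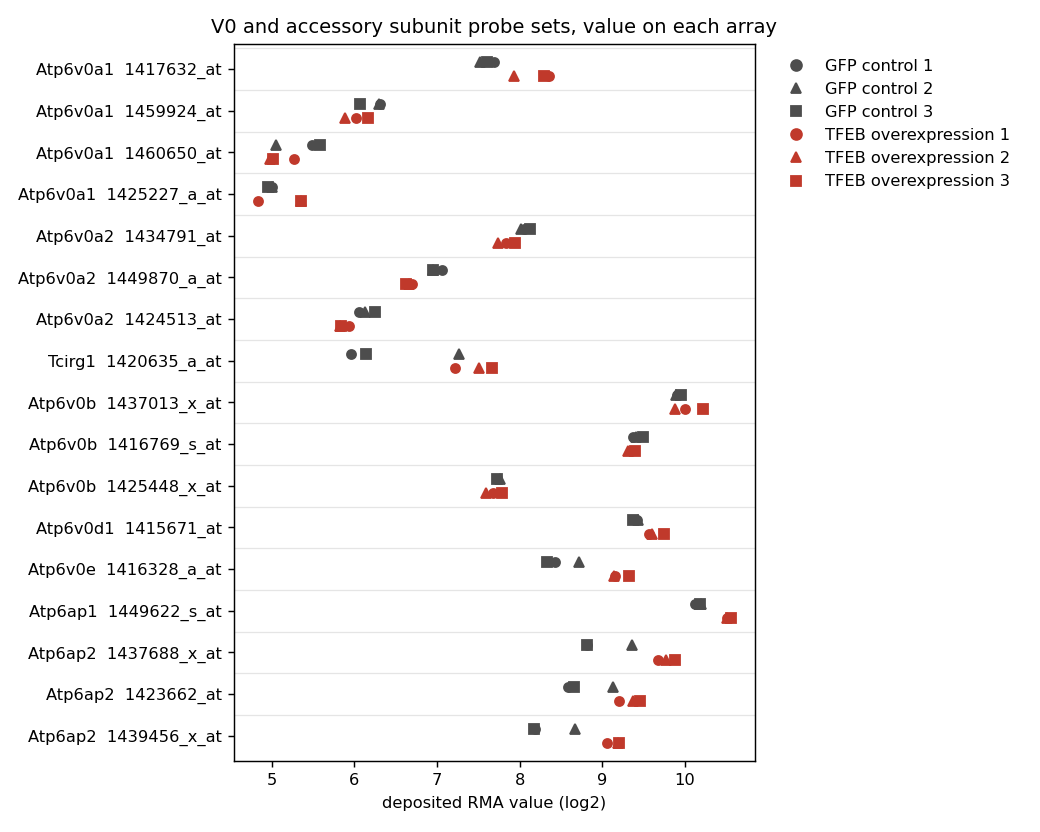
Deposited value (log2, x axis) of each of the 17 probe sets on each of the 6 arrays, with GFP control in grey above and TFEB overexpression in red below each line; the marker gives the replicate. The red points lie right of the grey ones for Atp6v0e, Atp6ap1, Atp6v0d1, the 3 Atp6ap2 probe sets and 1 of the 4 Atp6v0a1 probe sets, left of them for Atp6v0a2, and GFP control 2 (grey triangle) lies away from the other GFP arrays for Tcirg1, Atp6ap2 and Atp6v0e.

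The a subunit, the stator arm that guides protons past the ring, is read here by 3 genes, each with a different picture. Atp6v0a1, the isoform best known from neurons, was called on 1 of its 4 probe sets. Atp6v0a2, the Golgi and endosome isoform, was lower on all 3 of its probe sets by less than the fold limit. Tcirg1, the a3 isoform of osteoclasts and of phagocyte lysosomes, had the largest difference of the 8 genes and did not pass.

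For Atp6v0a1, probe set 1417632_at read 7.69, 7.52 and 7.60 on the GFP arrays and 8.36, 7.94 and 8.29 on the TFEB arrays. All 3 TFEB arrays lay above the 3 GFP arrays, and TFEB 2 was closest to them. The log2 fold change was 0.59 ± 0.12 (adjusted p = 0.013), or 1.51-fold, barely over the fold limit. The call was lost in 7 of 14 alternative settings, among them leaving out GFP 2 (0.55), TFEB 1 (0.51) or TFEB 3 (0.54). The value ran from 0.51 to 0.72 over the 14.

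The other 3 Atp6v0a1 probe sets did not pass. Probe set 1459924_at read 6.31, 6.30 and 6.07 against 6.02, 5.89 and 6.17, a difference of -0.20 ± 0.10 (adjusted p = 0.19). Probe set 1460650_at read 5.49, 5.06 and 5.58 against 5.27, 4.98 and 5.02, a difference of -0.29 ± 0.15 (adjusted p = 0.20). In both the groups overlapped. Probe set 1425227_a_at read 5.00, 5.00 and 4.95 against 4.84, 5.35 and 5.35, so that TFEB 1 lay below all GFP arrays and the other TFEB arrays above them (0.19 ± 0.15, adjusted p = 0.34).

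The disagreement was measured within each array as 1417632_at minus the other probe set. That difference was higher on the TFEB arrays by 0.79 for 1459924_at, by 0.88 for 1460650_at and by 0.40 for 1425227_a_at. The exact two-sided permutation test over arrays gave p = 0.1, 0.1 and 0.3, where 0.1 is the smallest value that 3 against 3 allows, and 0.18, 0.18 and 0.45 after Benjamini-Hochberg adjustment over the 9 probe set pairs compared. The mean of the 4 probe sets differed by 0.07 (adjusted p = 0.46), so the call of Atp6v0a1 rested on 1 probe set. Which transcripts or exons each probe set reads was not analysed here.

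For Atp6v0a2, probe set 1449870_a_at read 7.07, 6.96 and 6.96 on the GFP arrays and 6.70, 6.67 and 6.62 on the TFEB arrays. Probe set 1424513_at read 6.06, 6.13 and 6.25 against 5.93, 5.83 and 5.84. Probe set 1434791_at read 8.05, 8.01 and 8.13 against 7.84, 7.74 and 7.94. Every TFEB array was below every GFP array in all 3. The differences were -0.33 ± 0.069 (adjusted p = 0.013), -0.28 (adjusted p = 0.036) and -0.23 (adjusted p = 0.068), and their mean was -0.28 (adjusted p = 0.015). The first and second of these are the 2 member probe sets that were lower without a fold limit. The 2 probe set differences within Atp6v0a2 changed by 0.10 and 0.049 between groups (exact permutation p = 0.4 and 0.5).

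Tcirg1 is read by 1 probe set, 1420635_a_at, at 5.96, 7.27 and 6.15 on the GFP arrays and 7.21, 7.51 and 7.67 on the TFEB arrays. GFP 2 was above TFEB 1, and the other GFP arrays were below all TFEB arrays by more than 1 log2 unit. The log2 fold change was 1.01 ± 0.34, 2.01-fold, with a 95% interval of 0.21 to 1.81 and an adjusted p of 0.060, so it did not pass. Without GFP 2 it was 1.41, 2.66-fold (adjusted p = 0.00060), past the threshold. Its adjusted p lay between 0.00060 and 0.17 in the 14 alternatives.

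**Figure D2:**
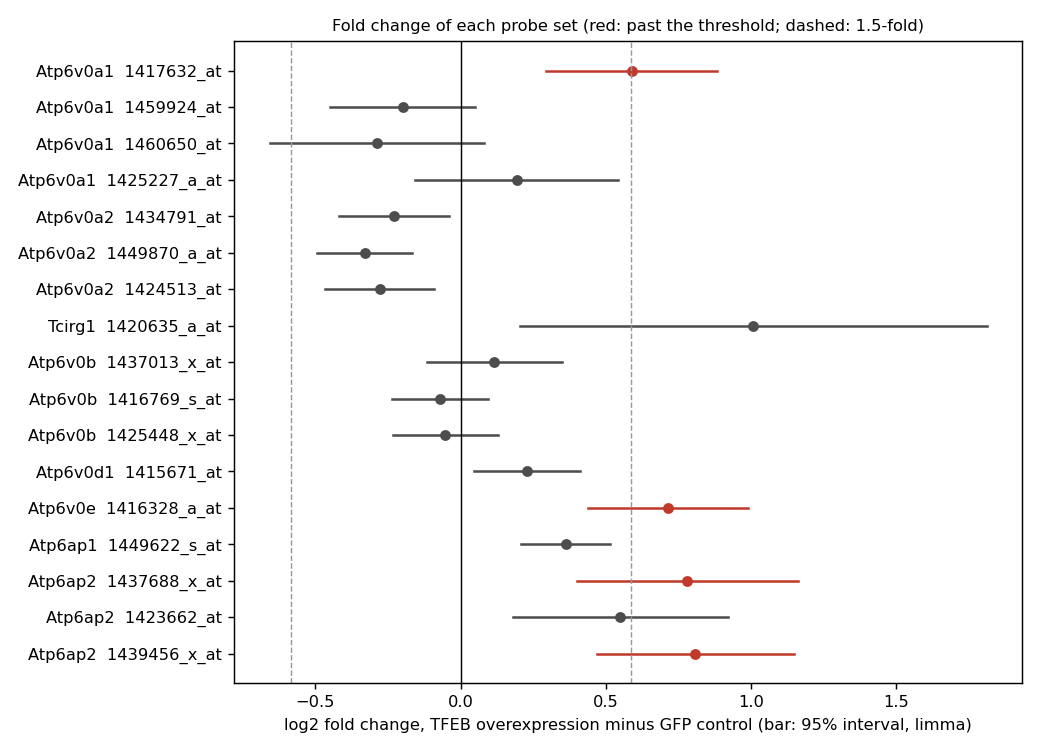
Log2 fold change of each member probe set (x axis, TFEB overexpression minus GFP control, 3 arrays each) with its 95% interval from limma; red marks the 4 past the threshold and dashed lines mark 1.5-fold. The 4 Atp6v0a1 probe sets lie on both sides of 0, the 3 Atp6v0a2 probe sets lie below 0, and Tcirg1 has the widest interval, 0.21 to 1.81.

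Of the ring and the small membrane subunits, Atp6v0e rose and Atp6v0b did not pass on any probe set. Atp6v0e, which codes for the small hydrophobic e subunit, read 8.43, 8.71 and 8.33 on the GFP arrays and 9.15, 9.15 and 9.32 on the TFEB arrays (1416328_a_at). The groups did not overlap, and GFP 2 was the highest GFP array. The log2 fold change was 0.71 ± 0.12 (adjusted p = 0.0054), 1.64-fold, and it stayed past the threshold in all 14 alternatives, from 0.64 to 0.82. This was the member probe set of smallest p, and its promoter stretch above holds the E-box within the first transcribed bases.

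Atp6v0b, which codes for the c″ proteolipid of the ring, has a promoter stretch with 2 E-box matches, and its 3 probe sets differed by no more than 0.12. Probe set 1437013_x_at read 9.90, 9.89 and 9.95 against 9.997, 9.88 and 10.21, a difference of 0.12 with a 95% interval of -0.12 to 0.35 (adjusted p = 0.39). Probe sets 1416769_s_at and 1425448_x_at differed by -0.072 (adjusted p = 0.45) and -0.053 (adjusted p = 0.62). The groups overlapped in all 3. Within arrays, 1437013_x_at minus these probe sets was higher on the TFEB arrays by 0.19 and 0.17 (exact permutation p = 0.1 for each, 0.18 adjusted).

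Atp6v0d1, the widely expressed d subunit that joins the ring to the central stalk, read 9.42, 9.43 and 9.37 on the GFP arrays and 9.56, 9.60 and 9.75 on the TFEB arrays (1415671_at). Every TFEB array was above every GFP array. The difference was 0.23 ± 0.076, 1.17-fold, with an adjusted p of 0.059, and it did not pass. Its E-box spans the transcript start. The V0 sector has 2 further genes of interest here, Atp6v0c, which codes for the main ring proteolipid, and Atp6v0d2, the d isoform of osteoclasts. Neither had a probe set with its symbol alone, and both were not analysed here.

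For the 2 genes of accessory proteins the groups lay apart throughout. Atp6ap1, also called Ac45, takes part in pump assembly and its glycosylated domain lies in the lumen. Atp6ap2, the prorenin receptor, sits in the V0 sector and is needed for its assembly. On all 4 of their probe sets, 3 of them for Atp6ap2, every TFEB array was above every GFP array. Over all probe sets the groups did not overlap in 49.9%, counting both directions.

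Atp6ap2 probe set 1439456_x_at read 8.19, 8.66 and 8.18 on the GFP arrays and 9.06, 9.20 and 9.20 on the TFEB arrays. Probe set 1437688_x_at read 8.81, 9.36 and 8.81 against 9.67, 9.77 and 9.88. Probe set 1423662_at read 8.59, 9.13 and 8.66 against 9.20, 9.37 and 9.46. In each, GFP 2 lay between the other GFP arrays and the TFEB arrays. The differences were 0.81 ± 0.14 (1.75-fold, adjusted p = 0.0072), 0.78 ± 0.16 (1.72-fold, adjusted p = 0.012) and 0.55 ± 0.16 (1.46-fold, adjusted p = 0.036), and the last fell short of the fold limit. The call of 1437688_x_at was lost in 2 of the 14 alternatives, without TFEB 3 (0.73, adjusted p = 0.051) and with the methods' t-test (adjusted p = 0.061), and its adjusted p was otherwise as low as 0.00048. Probe set 1439456_x_at kept it in all 14.

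Atp6ap1 read 10.12, 10.19 and 10.18 on the GFP arrays and 10.51, 10.50 and 10.56 on the TFEB arrays (1449622_s_at). The spread within each group was small (SD 0.037 and 0.028), and GFP 2 did not stand apart. The difference was 0.36 ± 0.064 (adjusted p = 0.0075), 1.28-fold, under the fold limit.

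GFP control 2 moved some members and not others. Against the mean of GFP 1 and 3 it was higher by 1.21 for Tcirg1, by 0.55, 0.50 and 0.48 for the Atp6ap2 probe sets and by 0.33 for Atp6v0e. For Atp6v0d1 and Atp6ap1 the same difference was 0.041 and 0.039, and for the Atp6v0a1 probe set that passed it was -0.13. On Atp6v0a1 probe set 1460650_at GFP 2 was the lowest GFP array, with a difference of -0.48. Without it the fold change of that probe set went from -0.29 to -0.45 (adjusted p = 0.018), under the fold limit, and the groups no longer overlapped. Without GFP 2, 5 of 17 probe sets passed, where 18.7% of all probe sets did: Tcirg1, Atp6v0e and the 3 of Atp6ap2 (0.96, 0.72 and 0.97). Atp6v0e was at 0.82, and Atp6v0a1 dropped out at 0.55. The groups then did not overlap in 12 of the 17. Fewer arrays make this easier to reach, and its share over all probe sets was not computed.

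**Figure D3:**
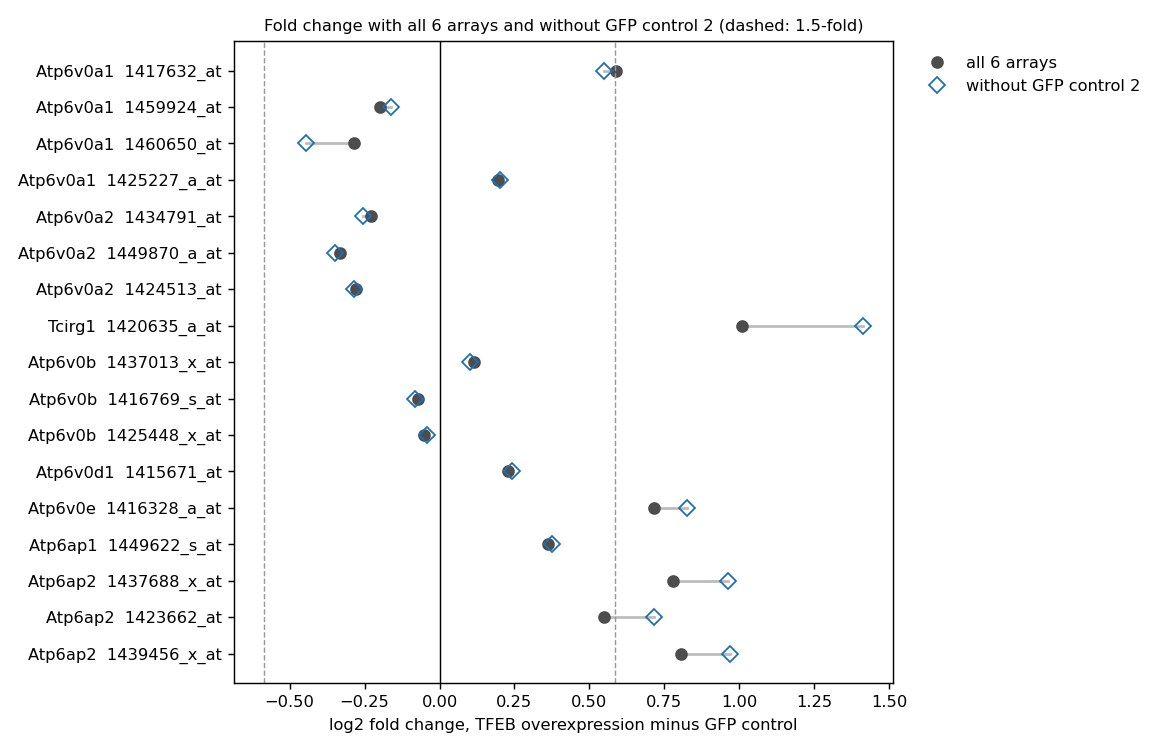
Log2 fold change of each member probe set with all 6 arrays (grey circles) and without GFP control 2 (open blue diamonds); dashed lines mark 1.5-fold. Leaving the array out moved Tcirg1 from 1.01 to 1.41 and the Atp6ap2 and Atp6v0e probe sets upwards, and left Atp6v0b, Atp6v0d1 and Atp6ap1 nearly in place.

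Markers of macrophages, cells that use Tcirg1 in their lysosomes, moved with the same array. All 20 listed genes had a probe set. Their mean deviation from the 6-array average was -1.46, 0.94 and -1.42 on the GFP arrays and 0.13, 0.92 and 0.88 on the TFEB arrays, so GFP 2 was at the level of TFEB 2 and 3. Summed on the linear scale, the list ran from 2978 to 17479 over the GFP arrays and from 9708 to 17309 over the TFEB arrays, and 16 of the 20 were over 2-fold higher on GFP 2 than on the mean of the other GFP arrays.

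Of the 20 macrophage genes, 1 passed the threshold, Cd68, a lysosomal glycoprotein of phagocytes (2.73 ± 0.53, adjusted p = 0.010). Csf1r, the receptor of the macrophage growth factor, differed by 1.29 (adjusted p = 0.052), and Lyz2, the lysozyme gene and the list's highest mean, by 0.89 (adjusted p = 0.26). The list's median was 1.33, and without GFP 2 it was 2.13 with 18 of 20 genes past the threshold. None passed the threshold in the lower direction. The part of these cells in the values of Tcirg1, Atp6ap2 and Atp6v0e was not tested.

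**Figure D4:**
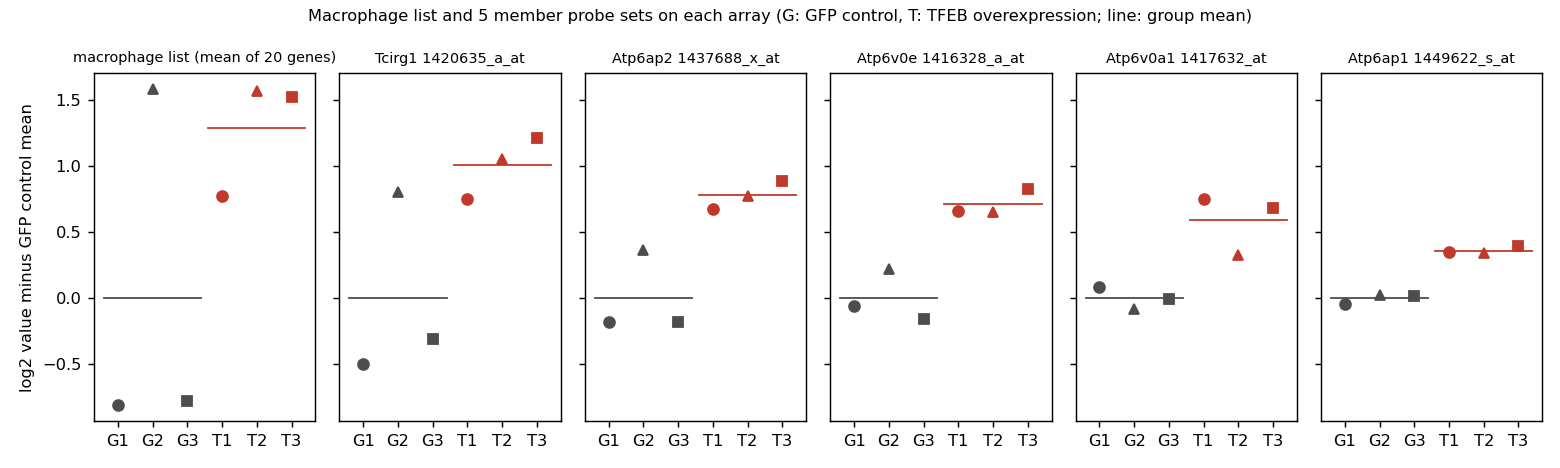
Mean log2 value of the 20 macrophage genes and of 5 member probe sets on each array, each minus its GFP control mean (y axis); G1 to G3 are GFP control, T1 to T3 TFEB overexpression, and lines are group means. GFP control 2 is raised in the macrophage list, Tcirg1 and Atp6ap2 and less so in Atp6v0e, and lies with GFP 1 and 3 for Atp6v0a1 and Atp6ap1.

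Tcirg1 is also known from osteoclasts, and 2 of the 7 osteoclast genes measured were higher, Ctsk, a collagen-degrading cathepsin (1.68 ± 0.17, adjusted p = 0.0013), and Nfatc1. Fibroblasts also express Ctsk. The summed linear level of the list was 375 to 400.2 on the GFP arrays and 665 to 839 on the TFEB arrays. Such a sum weighs the brightest genes most, here Ctsk and Nfatc1, and the list's median log2 fold change was 0.077. Acp5 differed by 0.43 and Calcr by 0.077, and Ocstamp, Oscar and Mmp9 by -0.33, -0.29 and -0.21. None of these passed. Calcr and Ocstamp, which are more specific to these cells, read 3.72 to 3.96 and 3.26 to 3.88 over the 6 arrays. Of the other marker lists, 5 of 8 fibroblast, 6 of 8 endothelial, 2 of 6 satellite cell and myoblast and 2 of 7 neutrophil genes were higher, and 0 of 7 lymphocyte genes. None of these lists had a gene past the threshold in the lower direction. The higher neutrophil genes were S100a8 and S100a9, and the median log2 fold change of the neutrophil list was -0.069. Camp, Ngp, Mpo and Elane differed by -0.37, -0.14, -0.16 and -0.069, and Csf3r by 0.10. The lymphocyte list was highest on GFP 2, at a mean deviation of 0.83. How far other cell types contribute to the member values was not tested.

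The other genes of the pump were read by the same rule. None of the 12 measured V1 genes, which code for the ATP-hydrolysing sector, passed the threshold. With the fold limit lifted, 6 were higher and 0 lower at an adjusted p below 0.05. Of all probe sets, 32.6% met that limit, counting both directions. Their median was 0.27. Atp6v1c1, which codes for the C subunit that controls assembly of the sectors, differed by 0.55, Atp6v1h by 0.47 and Atp6v1b2 by 0.40. In the other direction, Atp6v1e2 differed by -0.37, Atp6v1b1 by -0.29 and Atp6v1c2 by -0.16, at GFP means of 5.32, 4.19 and 4.60. Whether the V1 and V0 lists differ was not tested. Of the other V0 isoforms, Atp6v0a4, known from kidney, differed by -0.020 and Atp6v0e2 by -0.099, and neither passed.

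Of 6 assembly genes measured, 1 passed: Rogdi, a subunit of the complex that rejoins V1 to V0, read 6.88, 7.10 and 6.95 on the GFP arrays and 7.72, 7.62 and 7.84 on the TFEB arrays (0.75 ± 0.093, 1.68-fold, adjusted p = 0.0024). Every TFEB array was above every GFP array. Dmxl1, another part of that complex, differed by -0.56 (adjusted p = 0.048), under the fold limit, and was past it without GFP 2. Among 8 lysosomal ion channels and exchangers, 0 passed the threshold. With the fold limit lifted, 2 of them were higher and 2 lower, where 32.6% of all probe sets met that limit.

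**Figure D5:**
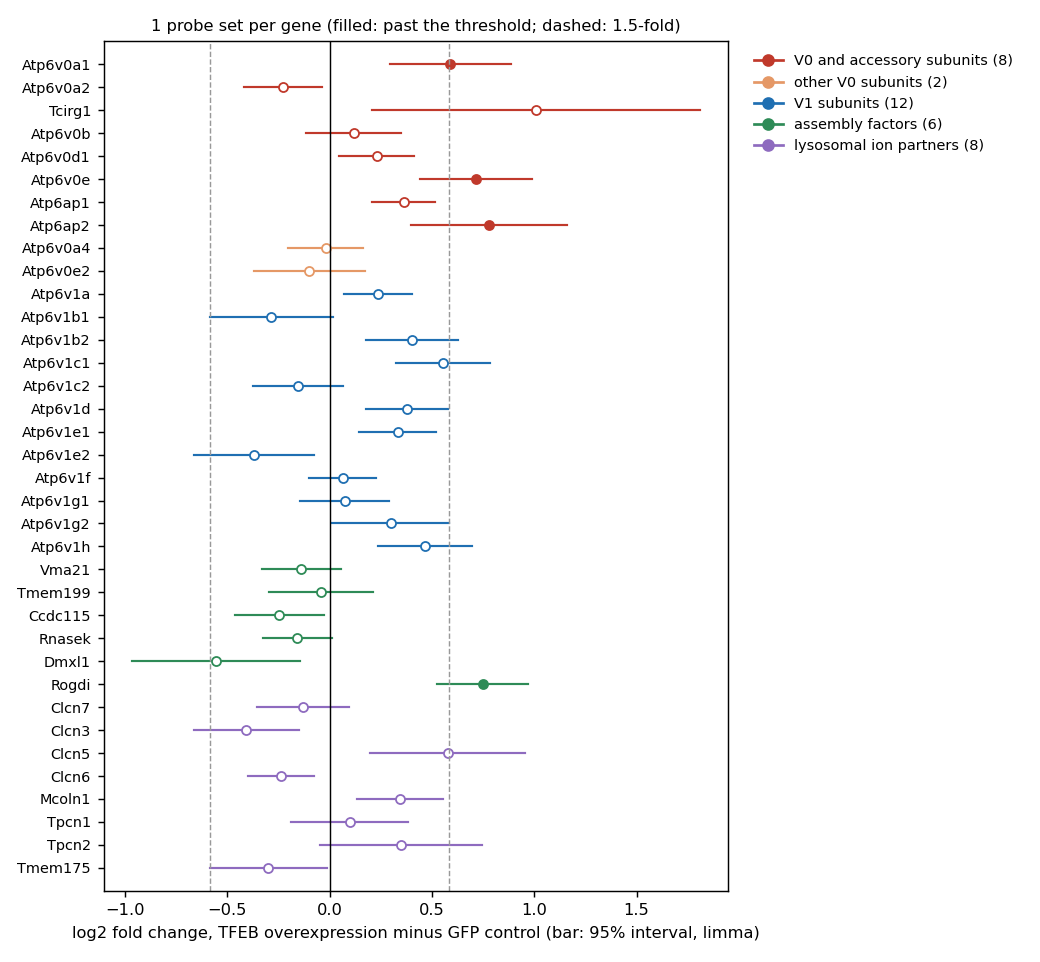
Log2 fold change with its 95% interval for 1 probe set per gene (highest mean), for the 8 V0 and accessory subunit genes and the other pump, assembly and lysosomal ion genes measured; filled points are past the threshold and dashed lines mark 1.5-fold. The filled points are Atp6v0a1, Atp6v0e, Atp6ap2 and Rogdi, and the V1 points reach 0.55 at most.

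The probe sets whose values, centred on the GFP mean, lay closest to Atp6v0e over the 6 arrays were those of Tgm2 (Euclidean distance 0.098), Gpr137b (0.13) and Arf4 (0.13). Their log2 fold changes were 0.75, 0.74 and 0.69. In all 3, as in Atp6v0e, GFP 2 was the highest GFP array. These likenesses follow from the selection, which used the same 6 values, and are not a separate result. Gpr137b was dim, at 3.37 to 4.40 over the arrays, against 8.33 to 9.32 for Atp6v0e.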

How the data were processed

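Biotin-labelled RNA of 6 muscles was hybridised to Affymetrix arrays. The deposited values are on a log2 scale, 1 per probe set and array, and ran from 2.20 to 14.4. Per the submitters' processing notes, they were made with RMA in affy (versions not stated), which subtracts background, quantile normalizes the arrays and summarises each probe set. Quantile normalization partly removes a change shared by most transcripts, and RMA compresses changes of dim and very bright probe sets. Arrays have no count depth; their number limits the precision.

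Of 22690 probe sets, 64 controls were left out. The platform annotation gave 1 symbol to 20380, several to 691 and none to 1555. Groups come from the labels, which call the arrays biological replicates. The test was limma 3.58.1 under R 4.3.3 (lmFit, eBayes, two-sided), and p-values were adjusted by Benjamini-Hochberg over 22626 probe sets. Calls needed an adjusted p under 0.05 and 1.5-fold, the limits named in the study's gene list legend. The array methods themselves were not among the sources used here. The methods' t-test named in this report is Student's t-test from the study's general statistics section, not a stated array method. The script was tested on simulated data.

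Named genes were all members with every probe set, pathway genes past the threshold, both absent V0 partners, Cd68, Csf1r, Ctsk and the list genes of highest mean, Tfeb, and the 3 probe sets nearest to the member of smallest p. Fibre and V1 examples, Nfatc1, the other osteoclast genes, the neutrophil genes, Dmxl1, Atp6v0a4 and Atp6v0e2 were added after their values were seen. Members and lists were chosen with earlier results of these data known.

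Alternatives were other scalings (equal medians, repeated quantile normalization, a shift to muscle fibre genes), a filter on the dimmest 25% of probe sets, array weights, an intensity trend with robust variance, the methods' t-test, a replicate block, leaving out each array, the mean or smallest-p probe set per gene, and no fold limit. Promoter sequences are from RefSeq.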

Additional observations from a re-analysis of the deposited data

How the results depend on the processing

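The 4 member probe sets past the threshold became 3 with equal medians or repeated quantile normalization, 5 with the shift to muscle fibre genes or with array weights, 2 with the methods' t-test (1 gene) and 8 with no fold limit. Leaving out 1 array at a time gave 2 to 5 probe sets, 1 to 3 genes and a median log2 fold change of 0.11 to 0.27, lowest in all 3 without TFEB 3. Over all 22626 probe sets, higher calls went from 1700 to 1309 and lower calls from 1382 to 1120 without TFEB 3. With the methods' t-test they were 1181 and 1082, and without GFP 2 they were 2428 and 1794. Equal medians gave 1475 higher and 1789 lower calls over all probe sets, and repeated quantile normalization 1608 and 1470. The shift to muscle fibre genes gave 1995 and 1107, and array weights 2144 and 1625. Where only 2 or 3 of 17 members passed, this was near the share of all probe sets. With no fold limit 2 of the 8 were lower, both of Atp6v0a2; no other of these settings called a member lower. Among the members' fold changes, direction reversed for Atp6v0b alone: probe set 1425448_x_at moved to 0.0082 with the muscle fibre shift, and the gene to -0.0026 as the mean of its probe sets; neither passed. The replicate numbers were checked for pairing: the deviations of same-numbered arrays correlated at 0.42, 0.17 and -0.23. Those of differently numbered arrays correlated at -0.44 to 0.33. With 3 arrays per group this check cannot settle whether the arrays were paired. With the replicate block 5 probe sets passed, Tcirg1 being added (adjusted p = 0.0498), and no other member call changed. Scalings moved the median of all probe sets by at most 0.069. The cause of these changes was not tested. With 3 arrays per group, and no signal against background per probe set, small changes of dim probe sets cannot be resolved.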
